A study of Mus musculus with 6 samples.

Results

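Molecular chaperones were described here through 10 genes chosen by symbol: the cytosolic HSP70 family genes Hspa8, Hspa1a, Hspa1b and Hsph1, the cytosolic HSP90 genes Hsp90aa1 and Hsp90ab1, the mitochondrial chaperone genes Hspa9, Hspd1 and Hspe1, and Hsf1, the transcription factor of the heat shock response. All 10 are among the 24421 rows of the count table and all 10 were tested. The RNA came from group 2 innate lymphoid cells (ILC2), tissue lymphocytes that release type 2 cytokines, sorted from the brains of C57BL/6 mice by surface markers. Donor mice were 20 to 22 months old for the 3 old libraries and 2 to 3 months old for the 3 young libraries. Cells of both ages spent 2 weeks in medium with 20% fetal calf serum, IL-7, IL-2, IL-33 and SCF, so every value describes cultured cells and not cells fresh from the brain. Whether the 3 libraries of an age stem from different animals or culture wells is not stated in the labels, and p-values therefore reflect the spread between these libraries, which may be technical.

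Chaperones bind unfolded or partly folded proteins and release them in cycles driven by ATP. HSP70 proteins take short exposed stretches of a client with the help of J-domain proteins, and exchange factors such as the product of Hsph1 reset them, while HSP90 acts later, on kinases and receptors close to their final fold. Imported mitochondrial proteins are pulled in by the HSP70 of that compartment (Hspa9) and folded inside a barrel of HSP60 (Hspd1) closed by a lid of HSP10 (Hspe1). Under protein stress HSF1 binds repeats of the letters GAA and TTC, called heat shock elements, and raises the inducible genes.

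Library totals ran from 17314428 to 17796301 counts in old and from 16477157 to 20804291 counts in young libraries. Levels are CPM, counts relative to library sizes scaled by TMM, and that factor was 0.840 to 0.885 in old and 1.12 to 1.18 in young libraries. All 12 ILC2 markers had counts, with sums of 12700 to 14800 CPM in old and 12600 to 15200 CPM in young libraries. Within that sum Gata3, Icos, Il1rl1, Il5, Il2ra and Klrg1 were called lower in old libraries and Id2 and Thy1 higher (edgeR), and Klrg1, a marker of mature ILC2, was at 0 to 3.87 CPM in old and 76.5 to 100.6 CPM in young libraries. Summed markers of microglia and macrophages stood at 50.9 to 85.3 CPM in old and 5.24 to 17.9 CPM in young libraries, most of it in old libraries from Tmem119, with Csf1r at 0 in all 6. Tmem119 and P2ry12 of that list were called higher in old libraries (edgeR adjusted p = 0.00141 and 0.0385). P2ry12 was at 10.35 to 19.81 CPM in old and 0.559 to 5.48 CPM in young libraries. Adgre1, Cx3cr1 and Aif1 had lower means in old libraries. Adgre1 was at 0 in all old and 1.73 to 4.12 CPM in young libraries. Cx3cr1 was at 0 to 1.40 CPM in old and 0.712 to 5.74 CPM in young libraries, with overlap, and Aif1 overlapped as well. Summed B cell markers stood at 33.2 to 58.3 CPM in old and 13.7 to 22.9 CPM in young libraries, all from Cd79b, with Ms4a1, Cd79a and Pax5 at 0. Cd3e, Cd4 and Cd8a of T cells and Eomes, Tbx21, Ncr1 and Klrb1c of NK cells and ILC1 were at 0 as well. The T cell sum was 6.76 to 14.7 CPM in old and 6.78 to 13 CPM in young libraries, and the dendritic cell sum, with Clec9a at 0, was 6.89 to 12.3 CPM in old and 5.13 to 7.25 CPM in young libraries. Prf1 reached 9.84 to 23.4 CPM in old and 2.24 to 4.68 CPM in young libraries, and the mast cell and basophil sum was 185 to 326 CPM in old and 230 to 278 CPM in young libraries. The 8 endothelial, glial and neuronal markers summed to 143 to 182 CPM in old and 84.4 to 138 CPM in young libraries, mostly from Pecam1 (125.7 to 163.2 CPM in old and 66.6 to 101.9 CPM in young libraries). Mbp was at 15.1 to 18.3 CPM in old and 17.7 to 36.6 CPM in young libraries, with overlap, and Cldn5, Aqp4, Mog and Rbfox3 were at 0 in all 6. The part of these other cells in the results that follow was not tested, and in bulk RNA a smaller number of cells of a type and less RNA per cell cannot be told apart.

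RefSeq promoter entries (GRCm38.p6, the assembly called mm10) existed for 5 of the 10 genes, and the 250 bases before the start are shown because they hold the letters that HSF1 is known to recognise. Capitals mark each GAANNTTC or TTCNNGAA, pairs of heat shock units that read the same on both strands and may overlap each other. Hspd1 and Hspe1 are divergent neighbours, and the second annotated start of Hspd1 lies 216 bases from the start of Hspe1, so that 285 bases of their 300-base promoter entries are the same stretch read on opposite strands. Hspa1a and Hspa1b differ at 3 of the 250 bases.
Hspe1, shared with Hspd1 (chr1:55087898-55088147, plus strand): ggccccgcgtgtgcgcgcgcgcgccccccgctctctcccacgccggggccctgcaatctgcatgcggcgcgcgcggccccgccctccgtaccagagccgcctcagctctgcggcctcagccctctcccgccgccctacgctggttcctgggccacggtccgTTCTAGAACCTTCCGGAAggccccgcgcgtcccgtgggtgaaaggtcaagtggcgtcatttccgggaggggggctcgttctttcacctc
Hsph1 (chr5:149636337-149636586, minus strand): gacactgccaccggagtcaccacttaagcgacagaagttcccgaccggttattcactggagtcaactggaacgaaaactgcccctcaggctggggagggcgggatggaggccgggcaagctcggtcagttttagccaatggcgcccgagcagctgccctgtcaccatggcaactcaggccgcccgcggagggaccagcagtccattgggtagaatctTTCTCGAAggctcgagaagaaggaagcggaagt
Hspa1a (chr17:34972157-34972406, minus strand): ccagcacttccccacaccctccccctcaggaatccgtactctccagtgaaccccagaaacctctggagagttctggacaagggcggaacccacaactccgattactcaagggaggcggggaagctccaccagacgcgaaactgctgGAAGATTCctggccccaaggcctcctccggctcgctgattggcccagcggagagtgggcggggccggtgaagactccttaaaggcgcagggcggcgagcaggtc
Hspa1b (chr17:34959239-34959488, minus strand): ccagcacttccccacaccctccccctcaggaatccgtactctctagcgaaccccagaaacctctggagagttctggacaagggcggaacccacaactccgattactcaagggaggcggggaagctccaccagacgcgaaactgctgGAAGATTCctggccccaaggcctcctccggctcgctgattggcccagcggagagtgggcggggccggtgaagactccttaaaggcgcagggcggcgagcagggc
The stretch between the second Hspd1 start and the Hspe1 start carries a run of such units, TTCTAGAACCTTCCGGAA, whose first base is 89 bases before the Hspe1 start. The 250 bases before the first annotated Hspd1 start hold neither pair of units, and that entry shares 4 bases with the entry of Hspe1. Runs of 3 alternating units with the spacing GAANNTTCNNGAA or its reverse complement were found upstream of 0.514% of 27025 genes, and either pair of units upstream of 14.5%. Hsph1 holds a single TTCNNGAA, 33 bases before its first start, and Hspa1a and Hspa1b each hold a single GAANNTTC, 104 bases before the start. These matches describe letters only, and they occur in genes that fell (Hspd1 at its second start, Hsph1) and in genes that did not pass the test (Hspe1, Hspa1a, Hspa1b).

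The constitutive Hspa8 and Hsp90ab1 and the mitochondrial Hspd1 and Hspa9 were lower in old than in young cultured ILC2, while the mitochondrial Hspe1 was not, on the TMM scale. Of the 10 genes, 5 fell in old libraries (Hspa8, Hsp90ab1, Hspd1, Hspa9 and Hsph1) by the quasi-likelihood F-test of edgeR, adjusted after Benjamini and Hochberg over 11805 genes, at a threshold of 0.05, where 8.14% of all genes tested were called lower. None was called higher by edgeR, DESeq2 or limma-voom, and at an unadjusted edgeR p under 0.05 the 10 genes gave 0 higher and 7 lower. Every old library lay below every young library for 6 genes and above it for 1, and the groups overlapped for 3, where 18.8% of all genes tested had every old library below and 38.2% had no overlap in either direction. Hsp90ab1 and Hsph1 fell at least 2-fold, as did 6.17% of all genes tested. The median log2 change was -0.56 for the 10 genes and -0.10 for all genes tested. Together the 10 genes took 0.242 ± 0.0199% of all counts in old and 0.518 ± 0.0138% in young libraries (SD, n = 3 each), and on the TMM scale they summed to 2793 ± 160 CPM in old and 4483 ± 32.6 CPM in young libraries. The count of 5 was 3 without old library 1, 2 without old library 2, 3 without old library 3, 2 without young library 1 and 3 without young library 2. When libraries were scaled by totals alone, the median of all genes moved to -0.52 and 7 of the 10 genes were called lower. With an offset per library for transcript length and GC content, called the length-GC offset, the genes called lower were Hspa8, Hsp90ab1, Hsf1 and Hspe1 (adjusted p = 0.0498), and Hspd1, Hspa9 and Hsph1 lost their calls, so directions and calls are relative to the TMM scaling.

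**Figure D1:**
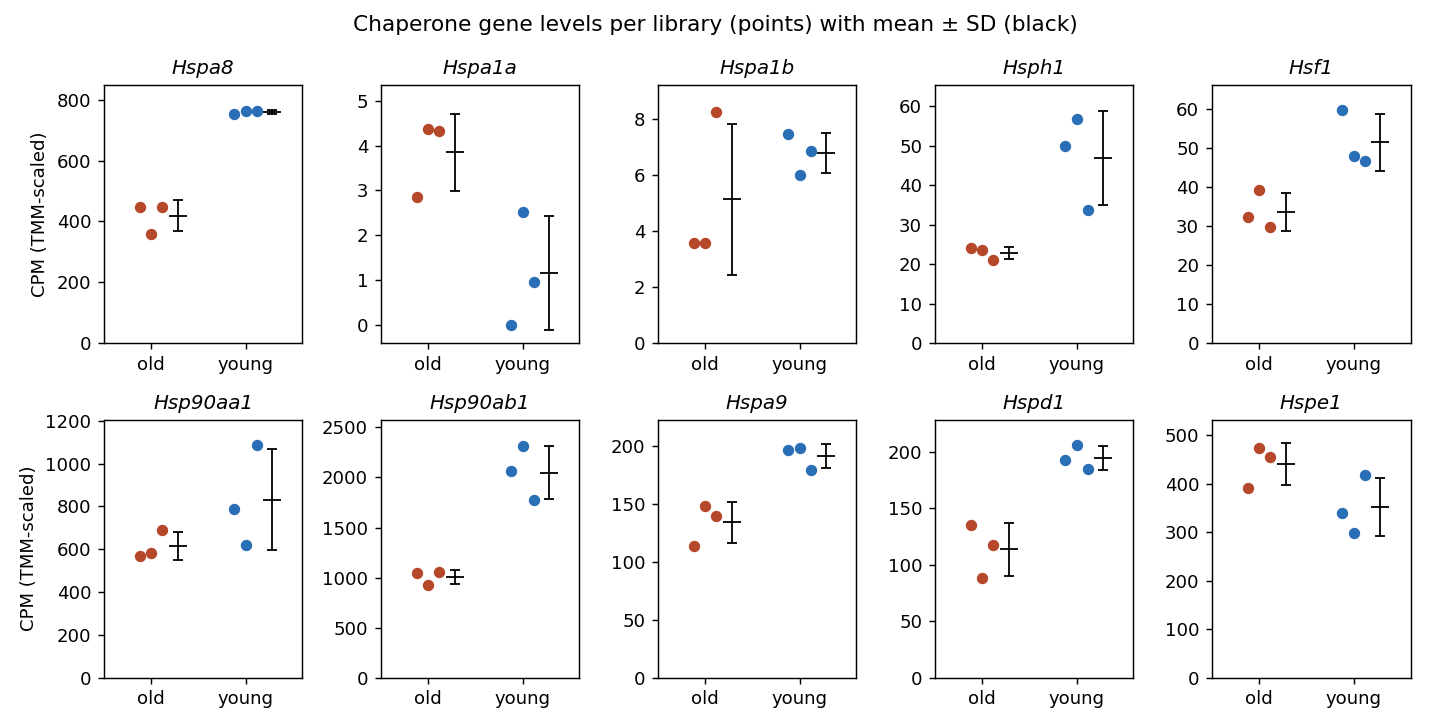
TMM-scaled CPM of each gene (vertical axis, linear, each panel with its own range) in the 3 old libraries and the 3 young libraries; points are libraries and black marks are mean ± SD. For Hspa8, Hsp90ab1, Hspd1, Hspa9, Hsph1 and Hsf1 every old point lies below every young point, and for Hspa1a every old point lies above.

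Among the HSP70 genes of the cytosol, the constitutive Hspa8, which folds new proteins in unstressed cells, had 447, 359.9 and 448 CPM in old libraries, against 752, 764 and 762 CPM in young libraries. The 3 young values lay within a spread of 6.52 CPM (SD), and the old libraries were all far below them. Hspa8 fell by 0.86 ± 0.13 (SE) on the log2 scale (edgeR adjusted p = 0.00106), 0.551 times the young level, and the call held under all 17 alternatives, with log2 changes of -1.28 to -0.73. Its exons share 6.09% of their length with small nucleolar RNA genes inside it.

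Hsph1, which encodes the HSP110 exchange factor of HSP70, had 24.0, 23.5 and 21.2 CPM in old libraries, against 49.9, 56.9 and 33.7 CPM in young libraries. The old libraries sat close together, while the young ones were spread, with young library 3 nearest to the old group. It fell by 1.03 ± 0.28 (SE) on the log2 scale (edgeR adjusted p = 0.0248). That call was lost without old library 1, 2 or 3 (adjusted p = 0.0531, 0.0646 and 0.0645) or young library 1 or 2 (0.107 and 0.118), and under the length-GC offset (log2 change of -0.58, adjusted p = 0.177).

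The stress-inducible HSP70 genes, Hspa1a and Hspa1b, were scarce in both groups. Hspa1a had 43, 65 and 68 counts in old libraries, against 0, 62 and 19 counts in young libraries, where 0 counts allow up to 0.156 CPM (3 counts, counting error only). Hspa1b had 54, 53 and 130 counts in old libraries, against 143, 148 and 135 counts in young libraries. Hspa1a had a log2 change of 1.71 ± 1.38 (SE; edgeR adjusted p = 0.449) and Hspa1b one of -0.40 ± 0.66 (0.742), and neither passed.

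The 2 genes lie near each other on chromosome 17 (GRCm38, Hspa1a at 34969190 to 34972156 and Hspa1b at 34956436 to 34959238, both intronless and on the minus strand). Of all 75-base words in the Hspa1a transcript, 52.7% also occur in that of Hspa1b, so a read from those words cannot be assigned to either by sequence. Hspa1a took 44.3, 55.1 and 34.3% of the counts of the 2 genes in old libraries, against 0, 29.5 and 12.3% in young libraries. In addition, 19% of the Hspa1a exon overlaps an opposite-strand predicted gene, and how the authors' counting treated shared reads is not given in the sources used here. Summed into a single row, they reached 8.98 ± 3.20 CPM in old and 7.94 ± 0.555 CPM in young libraries (SD, n = 3 each), with a log2 change of 0.18 ± 0.53 (SE; edgeR adjusted p = 0.866). The groups overlap in that sum.

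Hsp90ab1, the constitutive HSP90 gene, had the largest counts of the 10 genes. It stood at 1045, 925 and 1054 CPM in old libraries, against 2062, 2310 and 1774 CPM in young libraries. All old values were far below the lowest young value, and the gene fell by 1.02 ± 0.13 (SE) on the log2 scale (edgeR adjusted p = 0.000334). The call held under all 17 alternatives, with log2 changes of -1.44 to -0.85. Hsp90aa1, the stress-inducible HSP90 gene, had 569.6, 585 and 688 CPM in old libraries, against 788, 619 and 1089 CPM in young libraries. The groups overlap through young library 2, and the log2 change of -0.44 ± 0.19 (SE) did not pass (edgeR adjusted p = 0.137). Without young library 2 it passed (log2 change of -0.60, adjusted p = 0.0417), and also when scaled by library totals alone (-0.85, adjusted p = 0.00742). The log2 change shrank to -0.17 without young library 3 (adjusted p = 0.512) and to -0.15 under the length-GC offset (0.582). The 2 HSP90 transcripts share no 75-base word.

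Hspd1, the HSP60 barrel of mitochondria, had 135, 88.2 and 117.9 CPM in old libraries, against 193, 206 and 185 CPM in young libraries. The highest old value stayed below the lowest young value, and the gene fell by 0.77 ± 0.18 (SE) on the log2 scale (edgeR adjusted p = 0.0132). The call was lost without old library 2 (adjusted p = 0.0535), young library 1 (0.0627) or young library 2 (0.052), and under the length-GC offset (log2 change of -0.58, adjusted p = 0.0515). Hspa9, the HSP70 of mitochondria, had 114, 148 and 139 CPM in old libraries, against 196, 198 and 179 CPM in young libraries. It fell by 0.51 ± 0.16 (SE) on the log2 scale with an edgeR adjusted p of 0.0467. Although the groups did not overlap, leaving out any single library ended the call, with adjusted p-values of 0.0562 (without young library 3) to 0.175 (without young library 1). The length-GC offset (log2 change of -0.22, adjusted p = 0.357), RLE scaling (0.0616) and upper quartile scaling (0.0592) ended it too.

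Hspe1, the HSP10 lid that works with HSP60, did not fall with its partner on the TMM scale. It had 391, 473 and 454 CPM in old libraries, against 339, 299 and 417 CPM in young libraries. The groups overlap through young library 3 and old library 1. Its log2 change of 0.32 ± 0.16 (SE) did not pass (edgeR adjusted p = 0.185). The direction turned with the scaling, to -0.09 when scaled by library totals alone (adjusted p = 0.674) and to -0.35 under the length-GC offset, where it was called lower (adjusted p = 0.0498). Without young library 3 it was called higher instead (0.49, adjusted p = 0.0399).

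On chromosome 1 the 2 genes lie on opposite strands with overlapping ends (GRCm38, Hspd1 at 55077835 to 55088243 on the minus strand and Hspe1 at 55088132 to 55091307 on the plus strand), and the run of heat shock units shown above falls inside that Hspd1 span. Their exons overlap each other on opposite strands over 4.24% of Hspd1 and 7.6% of Hspe1, and GENCODE lists 5 and 6 pseudogenes named after them, so some counts are uncertain. Inside each library, the ratio of Hspd1 to Hspe1 per transcript length is free of the scaling between libraries. It was 0.11, 0.0595 and 0.0829 in old libraries, against 0.182, 0.22 and 0.142 in young libraries. All old ratios were below all young ratios, with a difference of -1.13 on the log2 scale (two-sided exact permutation p = 0.1, which is the lowest value that groups of 3 can give). Transcript length moves with this difference. The Hspe1 transcript is 774 bases long and that of Hspd1 2423 bases, and the length-GC offset left log2 changes of -0.35 for Hspe1 and -0.58 for Hspd1.

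Across all genes, shorter transcripts were higher in old libraries. Spearman's rho between the log2 change and transcript length was -0.37 over 11705 genes, as a description across genes of the same libraries. In the class of 56 to 1642 bases that holds Hspe1, the median log2 change was 0.51. In the class of 1643 to 2525 bases, which holds Hspa8, Hspd1, Hsp90ab1 and Hsf1, the median was 0.04. It was -0.20 in the class of Hspa1a, Hspa1b, Hspa9 and Hsp90aa1, and -0.36 in the class of Hsph1. Hspa8, Hsp90ab1 and Hspd1, with log2 changes of -0.86, -1.02 and -0.77, lay below the median of their class, and so did Hspa9, with -0.51. Hspe1 (0.32), Hsf1 (-0.61), Hsp90aa1 (-0.44), Hspa1b (-0.40) and Hsph1 (-1.03) lay below theirs too, and Hspa1a (1.71) lay above.

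Hsf1 had 32.3, 39.2 and 29.7 CPM in old libraries, against 59.8, 48.0 and 46.7 CPM in young libraries. The groups did not overlap, but the log2 change of -0.61 ± 0.24 (SE) did not pass (edgeR adjusted p = 0.107). It passed under the length-GC offset (-0.75, adjusted p = 0.0441) and when scaled by library totals alone (-1.03, adjusted p = 0.0111). RNA level says nothing about the activity of this factor, which is set largely by its release from chaperones and by its modification.

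**Figure D2:**
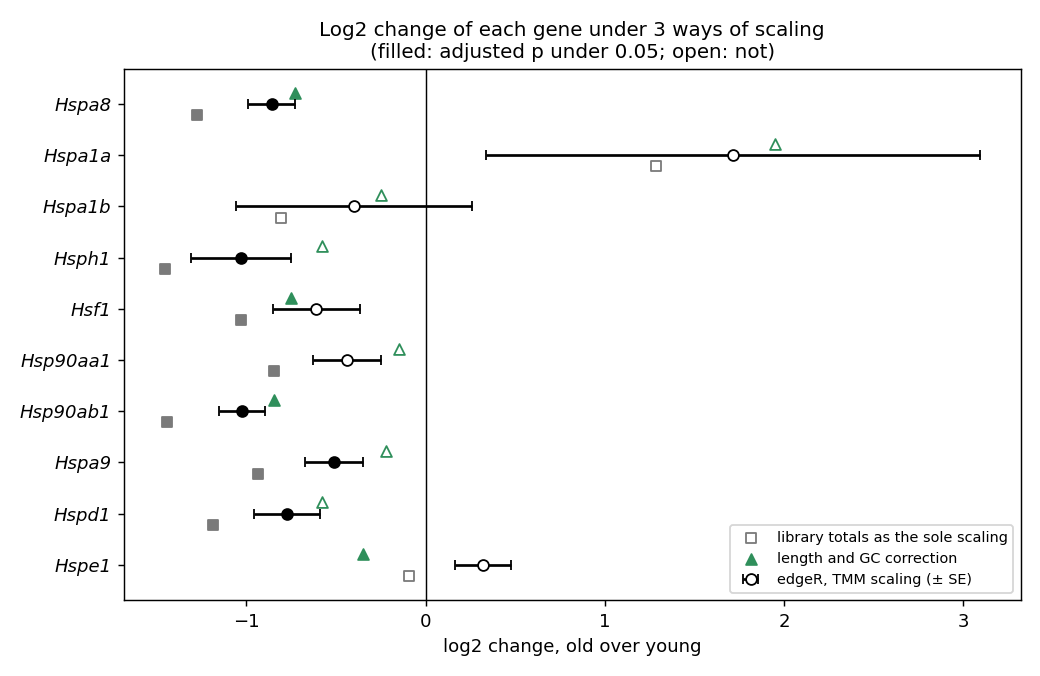
Log2 change, old over young (horizontal axis), of each gene in the edgeR fit with TMM scaling (circles, bars ± SE), when scaled by library totals alone (squares) and with an offset for transcript length and GC content (triangles); filled symbols have an adjusted p under 0.05. Hspa8 and Hsp90ab1 are filled and left of 0 in all 3, while Hspe1 lies at 0.32, -0.09 and -0.35.

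Levels per kilobase of transcript (TMM-scaled CPM divided by transcript length) had a different leading gene in each group. In old libraries Hspe1 led with 568 ± 55.6, followed by Hsp90ab1 with 400 ± 28.7, whereas in young libraries Hsp90ab1 led with 813 ± 106 and Hspe1 followed with 454 ± 77.8 CPM per kilobase (SD, n = 3 each). The values of neighbours at these places did not overlap between libraries. Hsp90aa1 and Hspa8 came next, at 187 ± 19.7 and 175 ± 21.1 CPM per kilobase in old libraries and 254 ± 72.5 and 317 ± 2.72 in young libraries, and their ranges overlap in each group. Hspd1 and Hspa9 stood at 46.9 ± 9.78 and 43.9 ± 5.87 in old libraries, with overlap, and at 80.3 ± 4.39 and 62.7 ± 3.4 in young libraries, without it. Below them Hsf1, Hsph1, Hspa1b and Hspa1a kept the same order in both groups, and only Hspa1b and Hspa1a of the old group overlapped.

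Further ratios inside the library compare inducible with constitutive forms and mitochondria with cytosol. Hsp90aa1 over Hsp90ab1 per length was 0.418, 0.486 and 0.502 in old libraries, against 0.294, 0.206 and 0.471 in young libraries. Young library 3 fell among the old values, and the log2 difference of 0.61 had a two-sided exact permutation p of 0.2. It was 0.33 without young library 2 and 0.93 without young library 3. Hspa1a plus Hspa1b over Hspa8 was 0.012, 0.0183 and 0.0235 in old libraries, against 0.00847, 0.0094 and 0.00871 in young libraries. Each old ratio was above each young one, with a log2 difference of 0.96 (two-sided exact permutation p = 0.1). Hspa8 passed the test between the groups and the Hspa1a and Hspa1b sum did not. Hspd1 over Hspa8 was 0.299, 0.242 and 0.26 in old libraries, against 0.253, 0.266 and 0.24 in young libraries, with overlap and a log2 difference of 0.07 (two-sided exact permutation p = 0.6).

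**Figure D3:**
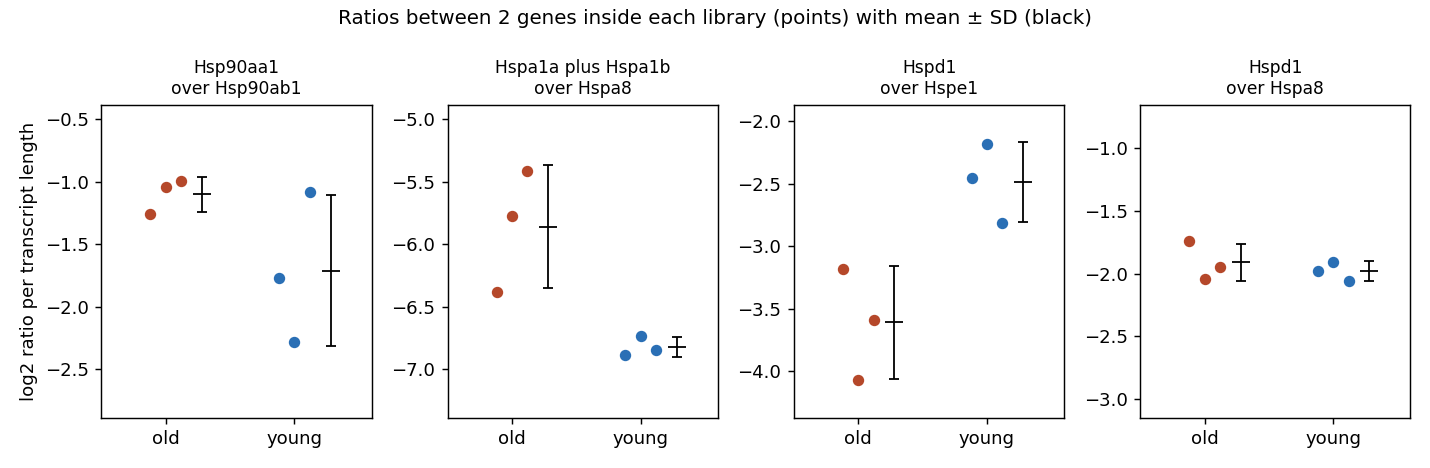
Log2 ratio of length-scaled counts of 2 genes inside each library (vertical axis, each panel spanning the same number of log2 units) for old and young libraries; points are libraries and black marks are mean ± SD. Hspd1 over Hspe1 is lower in all old libraries, at -3.61 ± 0.45 in old and -2.49 ± 0.32 in young libraries, while Hspd1 over Hspa8 overlaps.

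Over all genes tested, 19.4% were called, 11.2% higher and 8.14% lower, and the counts of the chaperone lists stand against these shares. Of 17 J-domain genes of the cytosol tested, 1 rose and 1 fell, with a median log2 change of 0.03. When scaled by library totals alone, 0 were called higher and 7 lower, and under the length-GC offset 3 higher and 1 lower. Dnajb1, the HSP40 partner of inducible HSP70, rose to 133.9 ± 6.97 CPM in old libraries, against 86.9 ± 3.81 CPM in young libraries (SD, n = 3 each), by 0.63 ± 0.16 (SE) on the log2 scale (edgeR adjusted p = 0.0205). Its call was lost without old library 1 or 2 (0.0688 and 0.0669) or young library 1 or 2 (0.0934 and 0.0586), and when scaled by library totals alone (0.366). Dnajc9, a J-domain protein that also binds histones, fell by 0.76 on the log2 scale, and 2 genes of the list fell without old library 1 or 3. Of 9 exchange factors and partners, 2 fell (0 without old library 2, 1 without any other single library), and of the other HSP70 genes 1 of 5 tested. Stip1, the adaptor that links HSP70 to HSP90, fell to 137.6 ± 22.7 CPM in old libraries, against 230.9 ± 23.1 CPM in young libraries, a call lost without old library 2 (edgeR adjusted p = 0.0529). Hspa4, an exchange factor of the HSP110 kind, fell by 0.86 ± 0.16 (SE) on the log2 scale (edgeR adjusted p = 0.00393), and its call was lost under the length-GC offset (-0.35, adjusted p = 0.143). Bag3, an exchange factor tied to autophagy, fell by 1.21 on the log2 scale with an edgeR adjusted p of 0.048, and the call was lost whichever library was left out (0.0537 to 0.203).

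Cochaperones of HSP90 had 1 called gene of 16, Tomm70a, the mitochondrial import receptor that docks HSP90 and HSP70. It fell by 0.58 on the log2 scale (edgeR adjusted p = 0.0467), a call lost without old library 1 or 3 or any young library (0.0646 to 0.171) and under the length-GC offset (-0.14, adjusted p = 0.668). Over all genes tested 8.14% were called lower. Log2 changes in the list ran from -0.99 to 0.25, with a median of -0.30. When scaled by library totals alone, 11 of its genes were called lower, and under the length-GC offset 3 were called lower and 1 higher. For Cdc37, which brings kinases to HSP90, the level was 311 ± 21.3 CPM in old and 335 ± 2.47 CPM in young libraries, and for Fkbp8, which encodes another HSP90 partner, 528 ± 52.7 CPM in old and 529.8 ± 25.3 CPM in young libraries (SD, n = 3 each), chosen here after their values were seen.

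The TRiC chaperonin, the cytosolic relative of HSP60 that folds actin and tubulin, had 6 of its 8 subunit genes called lower. Over all genes tested 8.14% were called lower. The median log2 change of the TRiC list was -0.58. Cct5 had 344, 402 and 447 CPM in old libraries, against 616, 555 and 653 CPM in young libraries, and fell by 0.61 ± 0.14 (SE) on the log2 scale (edgeR adjusted p = 0.0108). Cct3 and Cct4 fell by 0.64 and 0.73 on the log2 scale. These calls were lost for Cct5 without old library 1 (0.0521) or young library 1 (0.0688), for Cct3 without old library 1 or 2 or young library 1 or 2 (0.0543 to 0.0708), and for Cct4 without old library 2 (0.0686) or young library 1 (0.0852). Cct7, with a log2 change of -0.06 ± 0.12 (SE), and Cct8, with -0.44 ± 0.15, did not pass. The count of 6 depended on single libraries. It was 1 without old library 1, 1 without old library 2, 0 without young library 1, 2 without young library 2 and 4 without young library 3. The TRiC count was 4 under the length-GC offset, 5 under RLE or upper quartile scaling and 8 when scaled by library totals alone. Prefoldin, the complex that hands unfolded actin and tubulin to TRiC, went the other way on this scale. Of its 6 genes 3 rose, where 11.2% of all genes tested were called higher: Pfdn1, Pfdn6 and Pfdn2, with a list median log2 change of 0.52. Pfdn1 had 319.5, 309.9 and 349.9 CPM in old libraries, against 123, 116 and 218 CPM in young libraries, without overlap (edgeR adjusted p = 0.00627). Pfdn6 had 176 ± 4.95 CPM in old and 107 ± 5.98 CPM in young libraries, and Pfdn2 94.4 ± 7.39 CPM in old and 62.8 ± 5.22 CPM in young libraries (SD, n = 3 each). The Pfdn6 call was lost without young library 1 (0.0528), and that of Pfdn2 without old library 1, 2 or 3 or young library 1 or 2 (0.0662 to 0.167). The count was 4 without young library 3, 2 without old library 1, 2 or 3 or young library 2, 1 without young library 1 and 1 when scaled by library totals alone. Under the length-GC offset the count was 2. Pfdn6 turned to -0.03 there, while Pfdn1 had a log2 change of 0.68 and Pfdn2 one of 0.58 (edgeR adjusted p = 0.0349 and 0.0334). All genes with transcripts of 56 to 1642 bases had a median log2 change of 0.51, close to that of the prefoldin list. Whether prefoldin genes differ from other genes of similar transcript length was not tested.

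Mitochondrial chaperone and protease genes other than Hspa9, Hspd1 and Hspe1 had calls in both directions on the TMM scale. Of 16 genes tested, 4 rose and 2 fell, with a median log2 change of 0.00, where 11.2% of all genes tested were called higher and 8.14% lower. When scaled by library totals alone, 3 were called higher and 4 lower, and under the length-GC offset 3 higher and 1 lower. Dnajc19 and Dnajc15, J-domain proteins of the inner membrane, and Pam16, a subunit of the import motor that holds Hspa9, rose. Dnajc19 had 209.8, 187 and 210.1 CPM in old libraries, against 69.3, 58.8 and 60.9 CPM in young libraries, and rose by 1.68 ± 0.17 (SE) on the log2 scale (edgeR adjusted p = 7.19e-05). Dnajc15 rose to 539.6 ± 35.3 CPM in old libraries, against 227 ± 45.7 CPM in young libraries, and Pam16 to 107.9 ± 6.03 CPM in old libraries, against 51.1 ± 5.99 CPM in young libraries (SD, n = 3 each). Pam16 lost its call under the length-GC offset (0.13, adjusted p = 0.684). Grpel1, the exchange factor of Hspa9, was the other gene that rose, by 0.61 on the log2 scale, and the number that rose was 3 without old library 2 or 3 or young library 1 or 2, where Dnajc19, Dnajc15 and Pam16 kept their calls. Clpb, a disaggregase, fell to 23.3 ± 5.87 CPM in old libraries, against 60.2 ± 12.1 CPM in young libraries (edgeR adjusted p = 0.00593). It was not called under the length-GC offset. Grpel1 and Clpb were named after their values were seen. Trap1, the HSP90 of mitochondria, fell to 33.0 ± 10.8 CPM in old libraries, against 68.1 ± 15.0 CPM in young libraries (SD, n = 3 each), by 1.04 ± 0.29 (SE) on the log2 scale (edgeR adjusted p = 0.0257). Its call was lost without old library 2 or 3 (0.0891 and 0.0759) or young library 1 or 3 (0.144 and 0.063), and the number that fell was then 1. Trap1 kept its call under the length-GC offset (log2 change of -0.97, edgeR adjusted p = 0.0404).

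Classical HSF1 targets outside the 10 genes included calls in both directions on the TMM scale. Of 12 tested targets, 1 rose (Dnajb1) and 3 fell, Stip1 and Bag3 among them, where 11.2% of all genes tested were called higher and 8.14% lower. The median log2 change of the targets was -0.38, and some of these genes are also in the lists above. When scaled by library totals alone, 0 were called higher and 7 lower. The number that fell was 0 without old library 2, 1 without young library 1 and 2 without any other single library. Hsbp1, which encodes a protein that binds HSF1 and dampens it, rose to 347.5 ± 31.6 CPM in old libraries, against 206 ± 43.2 CPM in young libraries, by 0.75 ± 0.17 (SE) on the log2 scale (edgeR adjusted p = 0.0106). Its call was lost without young library 1 (0.0649) and when scaled by library totals alone (0.153). The other heat shock factor genes tested, Hsf2 and Hsf4, did not pass (edgeR adjusted p = 0.572 and 0.491). Hsf2 ranged between 4.71 and 11.5 CPM in old and between 5.98 and 14.9 CPM in young libraries, with overlap. Most small heat shock protein genes were scarce, and 4 of 10 were tested. The one with the smallest p, Hspb6, stood at 6.14 ± 2.78 CPM in old and 3.39 ± 0.177 CPM in young libraries (SD, n = 3 each; edgeR adjusted p = 0.480). Hspb11 had more, at 23.9 ± 2.76 CPM in old and 17.8 ± 7.99 CPM in young libraries, with overlap (edgeR adjusted p = 0.520).

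**Figure D4:**
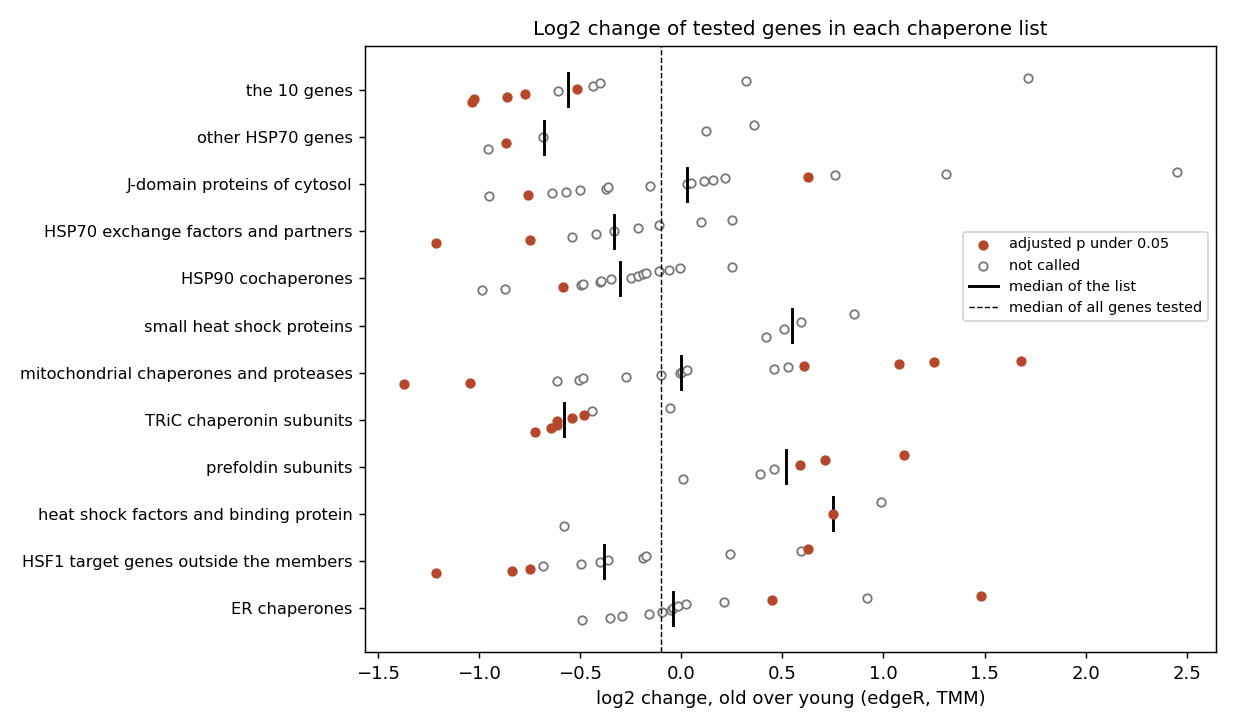
Log2 change, old over young (horizontal axis), of every tested gene (points; filled, adjusted p under 0.05) in the 10 genes and in each chaperone list, with the median of each list (black bars) and of all genes tested (dashed line, -0.10). The 10 genes and the TRiC subunits have medians of -0.56 and -0.58, and the prefoldin subunits 0.52.

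Of 7720 tested genes with a mean of at least 10 CPM, those whose pattern over the 6 libraries lay nearest to that of Hsp90ab1, the gene of the 10 with the smallest p, were Trex1, Gata3 and Jak1. Their distances were 0.196, 0.201 and 0.211, as Euclidean distance between TMM-scaled log2 CPM values centred per gene. Under the length-GC offset the log2 changes lay further apart. They were -0.85 for Hsp90ab1, -1.60 for Trex1, -0.75 for Gata3 and -0.39 for Jak1, whose call was lost (edgeR adjusted p = 0.0898). Whether these genes are regulated together was not tested. Gata3 had 191, 167 and 215 CPM in old libraries, against 437, 447 and 351 CPM in young libraries. Jak1 had 98.0, 100.7 and 95.7 CPM in old libraries, against 193, 218 and 165 CPM in young libraries. Trex1 had 61.7, 53.1 and 54.9 CPM in old libraries, against 105.9, 119 and 98.4 CPM in young libraries.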

How the data were processed

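The authors deposited raw counts in 1 table with a row per gene symbol. The submitters' processing notes name the build mm10, the aligner STAR 2.5.3a, and also Cufflinks 2.0, DESeq2 1.1, FastQC 1.0.0 and bcl2fastq 2.20.0.422. Which program counted reads, with what annotation and strand setting, is not given in the sources used here, so overlapping genes and near-identical copies have uncertain counts. Columns were matched to samples by name. The analysis used edgeR 4.0.16 under R 4.3.3 (filterByExpr, minimum count 10, minimum total 15, TMM, glmQLFit and glmQLFTest), with Benjamini-Hochberg adjustment over 11805 genes at 0.05. The standard error is the absolute log2 change divided by the root of F. DESeq2 1.42.0 and limma 3.58.1 (voom) were alternatives, beside other scalings and filters, robust dispersion, a loess offset per library on transcript length and GC content, a replicate block, libraries left out in turn, and Hspa1a and Hspa1b summed. Lengths (longest basic transcript, GENCODE vM21, GRCm38) matched 98.3% of symbols. The fit was tested on simulated data. Chi-square divided by its degrees of freedom was 35.7 to 59.7 between old libraries and 37.7 to 89.2 between young libraries, so none was counted as a duplicate. All 10 genes are named. From each list at most 3 called genes of smallest p are named, or 1 where none was called, together with Hspa5, Hsp90b1, Trap1 and the 3 genes nearest to the gene of smallest p. The 10 genes and the lists were chosen with earlier results of these data known. Cct7, Cct8, Cdc37, Fkbp8, Hsf2, Hsf4, Hspb11 and the cell type markers shown were picked outside that rule, after their values were seen, as were Clpb and Grpel1. Some genes that the rule names are not reported here.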

Additional observations from a re-analysis of the deposited data

How the results depend on the processing

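Over 168 recomputed values of the 10 genes, 141 kept their direction and their side of the threshold. Another 20 lost their call, and 5 gained one with the direction kept. The remaining 2 changed sign, both for Hspe1 (-0.092 when scaled by library totals alone and -0.352 under the length-GC offset). Under the length-GC offset Hspe1 also gained a call. The number of the 10 genes called lower was 5 in the reported fit, 4 to 7 over the alternatives that kept every library and 2 to 4 with a library left out, and the number called higher was 0 to 1 with a library left out. Of all genes tested, 2286 were called, 1314 to 2141 with a library left out, with 915 to 1344 higher (1325 reported) and 399 to 849 lower (961 reported). When scaled by library totals alone, 718 were higher and 2380 lower. The log2 difference of Hspd1 over Hspa8 was -0.011 to 0.141 with a library left out (0.073 reported). Outside the 10 genes, Pfdn6 turned to -0.032 under the length-GC offset, Hspa5 to -0.205 with library totals, and Hsp90b1 to 0.013 under DESeq2, 0.013 under RLE scaling, 0.014 under upper quartile scaling and 0.203 under the length-GC offset, and it spanned -0.076 to 0.142 with a library left out. The cause of these shifts was not tested. What same-numbered old and young libraries share beyond the number is not stated in the labels. Correlations of their deviations were 0.017, 0.019 and 0.039, against -0.032 to 0.013 for old and young libraries with different numbers. With the library number as a replicate block 2008 genes were called, 4 of the 10 among those lower, Hspa9 being lost (adjusted p = 0.0638). With 3 libraries in each group, an exact permutation p cannot go below 0.1. Counts of under 70 for Hspa1a limit what its log2 change can show.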

Other observations

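The chaperones of the endoplasmic reticulum, which fold secreted and membrane proteins, were measured beside those of the cytosol and mitochondria. Hspa5, the HSP70 of this compartment, had 956, 839 and 815 CPM in old libraries, against 746, 778 and 728 CPM in young libraries, and its log2 change of 0.21 ± 0.12 (SE) did not pass (edgeR adjusted p = 0.258). It passed under the length-GC offset (0.59, adjusted p = 0.00429) and turned to -0.21 when scaled by library totals alone (0.218). Hsp90b1, the HSP90 of this compartment, had 559 ± 17.7 CPM in old and 565 ± 83.5 CPM in young libraries (SD, n = 3 each), with a log2 change of -0.02 ± 0.14 (SE; edgeR adjusted p = 0.954), and it was called lower when scaled by library totals alone (-0.43, adjusted p = 0.0268). Of the 13 genes of this list 2 rose (1 without old library 2 or 3 or young library 1), and the median log2 change was -0.04, where 11.2% of all genes tested were called higher. When scaled by library totals alone, 1 gene of the list was called higher and 5 lower, and under the length-GC offset 4 were called higher and 0 lower. Sdf2l1, which forms part of a chaperone complex of the endoplasmic reticulum, had 1092, 1155 and 859.5 CPM in old libraries, against 374, 410.4 and 326 CPM in young libraries, and rose by 1.48 ± 0.15 (SE) on the log2 scale (edgeR adjusted p = 8.87e-05). Pdia6, a protein disulphide isomerase, rose by 0.45 on that scale (edgeR adjusted p = 0.0265), a call lost without old library 2 or 3 (0.0908 and 0.0683) or young library 1 (0.153) and when scaled by library totals alone (0.862). Whether the changes of the endoplasmic reticulum genes differ from those of Hspa8 and Hsp90ab1 was not tested.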
